A study of Homo sapiens with 12 samples.

Results

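MX1, MX2 and IFI27 are 3 interferon-induced genes, and they are described here across the 4 groups of an RNA-seq series in THP-1 cells. They were picked by symbol from 78932 genes in the deposited tables, because MX1 and IFI27 were lower when cyclosporin A and eltrombopag were added to stimulated cells and higher again when luspatercept joined them. MX2, the neighbour and closest relative of MX1, was taken beside them. Their levels with the drugs chose them, so their differences between the stimulated groups are given below as a description, with no p-value. The 74 other genes of a list of interferon-induced genes form the comparison.

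THP-1 is an established human line from an acute monocytic leukaemia. The NC cells were untreated. The LPS cells received LPS, a bacterial cell wall component sensed by TLR4, together with ATP, as a model of pyroptosis, an inflammatory form of cell death. The CE cells received LPS, ATP, the calcineurin inhibitor cyclosporin A and eltrombopag, a thrombopoietin receptor agonist that also binds iron. The CEL cells received LPS, ATP, cyclosporin A, eltrombopag and luspatercept, a receptor fusion protein that traps activin-like ligands. Each group held 3 libraries. The sources used here give no doses or times and do not say whether the 3 libraries came from separate cultures, so a p-value reflects the spread among these libraries, which may be technical. No group received cyclosporin A, eltrombopag or luspatercept alone. The column names of the tables differ from the sample labels, and the columns used for CE, named only as treated, were matched as the remaining group.

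Type I interferons bind a receptor made of IFNAR1 and IFNAR2, whose kinases JAK1 and TYK2 activate STAT2. With IRF9 it takes part in the ISGF3 complex, which binds the interferon-stimulated response element (ISRE) of its target genes. Monocytes stimulated through TLR4 make interferon beta and respond to it. MX1 and MX2 are dynamin-like GTPases that restrict viruses, MX1 in the cytoplasm and MX2 at the nuclear pore, where it blocks HIV-1. IFI27 (also called ISG12a) is a small membrane protein found at mitochondria and the nuclear envelope, and it is widely read as a marker of type I interferon exposure in blood.

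The promoters of MX1 and IFI27 are shown because the letters of the ISRE core can be read in both. RefSeq windows of 300 bases, 250 before and 50 after an annotated transcript start (GRCh38.p14, plus strand), were searched on both strands for the ISRE core (GAAA, any 2 bases, GAAA) and for TTCNNNGAA, the letters of the gamma-activated site (GAS). MX1 had 3 windows and IFI27 had 2, and no promoter window of MX2 was used here. Of each gene's first window, 150 bases before and 30 bases after the start are printed, in lower case with ISRE core matches in capitals, for MX1 at chr21:41420408-41420587 and for IFI27 at chr14:94110586-94110765.
MX1: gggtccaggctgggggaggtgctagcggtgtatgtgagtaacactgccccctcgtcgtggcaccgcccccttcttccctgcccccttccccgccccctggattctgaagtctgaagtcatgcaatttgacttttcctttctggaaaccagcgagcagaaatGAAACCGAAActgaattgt
IFI27: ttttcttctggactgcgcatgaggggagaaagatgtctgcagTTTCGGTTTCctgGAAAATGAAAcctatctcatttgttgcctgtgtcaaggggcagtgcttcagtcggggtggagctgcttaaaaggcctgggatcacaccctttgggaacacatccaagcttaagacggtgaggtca
The MX1 match lies just downstream of this start. IFI27 holds 2 matches, 1 on each strand, which begin 108 and 95 bases before the start, and a GAS match that overlaps both begins 101 bases before it. Of the other MX1 windows, the third held 1 ISRE core and 1 GAS match, and the second held neither. This says only that these letters are not in that window, as no spacing other than 2 bases was searched. The second window does hold tttcgtttc and tttcatttc, in which GAAA letters on the opposite strand lie 1 base apart. An ISRE core was present in 3.574% of all 35116 windows and in 55.714% of the 70 windows of the other interferon-induced genes. Windows with at least 2 matches, as in IFI27, made up 0.259% of all windows and 24.286% of those of the list. GAS letters were present in 7.657% of all windows and in 21.429% of those of the list.

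Each library held 17737240 to 23183474 estimated counts, and 21889 to 26274 genes had a count. The third NC library and the first LPS library stood apart in the sums of their FPKM values, at 1132219 and 1007624 against a lowest sum of 722589. The second CE library moved the whole comparison most when it was left out: the median log2 change of CE against LPS over the 14065 tested genes went from 0.08 to -0.04. Monocyte markers were present throughout, with 10 of 12 at a mean of at least 1 CPM, a count scaled to library size with TMM factors. Their sum was 843 to 874 CPM in NC, 661 to 697 in LPS, 367 to 541 in CE and 347 to 381 in CEL. The sum was thus lower in the drug-treated groups, but single markers went both ways in LPS and CE. Of 11 tested, 6 rose and 2 fell with LPS, against 22.4% and 23.5% of all tested genes. With CE 2 rose and 5 fell, against 28.8% and 20.7%. Between CE and CEL 0 rose and 4 fell, against 8.78% and 14.8%. The part of cell composition or maturation in the results below was not tested, and in bulk RNA fewer cells of a kind and less RNA per cell cannot be told apart. Of 5 markers of plasmacytoid dendritic cells, the main interferon producers of blood, CLEC4C was at 0 in all libraries, and the summed level was 25.8 to 33.2 CPM in NC, 51.1 to 58.6 in LPS, 65.6 to 69.3 in CE and 41.7 to 48.1 in CEL. Of these, 2 genes were tested, TCF4 and IL3RA, which other blood cells also express. Lymphocyte markers summed to at most 7.81 CPM, erythroid markers to at most 1.25 CPM and stromal, epithelial and endothelial markers to at most 1.45 CPM in any library.

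MX1 was nearly silent in untreated cells, strong after LPS and ATP, low again with cyclosporin A and eltrombopag, and back to 56.1% of its stimulated level with luspatercept. In NC it stood at 2.53, 2.69 and 2.80 CPM, and in LPS at 273, 262 and 262 CPM. In CE it stood at 22.7, 22.9 and 23.7 CPM, and in CEL at 147.5, 146 and 153 CPM. All 4 groups were separate, in the order NC, CE, CEL and LPS, and within each the libraries lay close together. Groups without overlap were common in these data, so nothing is read from this for MX1, IFI27 or MX2: they made up 62.5% of all tested genes in LPS against NC, 54.6% in CE against LPS, 34.7% in CEL against CE, 65.5% in CEL against LPS, 67.1% in CE against NC and 75.8% in CEL against NC. The mean in CE was 8.70% of the LPS mean.

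The rise of MX1 with LPS and ATP was 99.4-fold, a log2 change of 6.64 ± 0.06 (SE; edgeR quasi-likelihood test, Benjamini-Hochberg adjusted p = 3.25e-14). CE was 11.5-fold below LPS, a log2 change of -3.52 ± 0.05, and CEL was 6.45-fold above CE, a log2 change of 2.69 ± 0.04. CE still lay 8.65-fold above NC, at a log2 change of 3.11 ± 0.05. CEL stayed below LPS, at a log2 change of -0.83 ± 0.04. A gene on the opposite strand, MX1-AS1, had 0 to 5.07 estimated counts per library against 49 to 5910 for MX1. How many reads could belong to either gene was not tested. The sum of the 2 genes was whole in 12 of 12 libraries within 0.011 counts.

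IFI27 followed the same course from a lower start. It had 4, 5 and 3 counts in the NC libraries, or 0.166, 0.228 and 0.171 CPM, and 134, 153 and 134 CPM in LPS. In CE it stood at 44.0, 33.8 and 37.1 CPM, and in CEL at 112, 120 and 128 CPM. No groups overlapped, though the highest CEL library and the lowest LPS library were close. CE held 27.3% of the LPS mean and CEL 85.5%.

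The rise of IFI27 with LPS and ATP was 719-fold in the fitted model, a log2 change of 9.49 ± 0.17 (adjusted p = 3.08e-12). From the counts, 8965 in LPS against 12 in NC, the ratio was 741 with an exact 95% interval of 424 to 1434.5, which covers counting error only. CE was 3.66-fold below LPS, a log2 change of -1.87 ± 0.10, and CEL was 3.13-fold above CE, a log2 change of 1.65 ± 0.10. CEL stood at a log2 change of -0.23 ± 0.10 against LPS, which became -0.12 without the second LPS library and -0.15 without the first CEL library. IFI27 was therefore nearer to its stimulated level in CEL than MX1 was, and further from its untreated level in CE, which it exceeded by a log2 change of 7.62 ± 0.17.

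MX2 took another course, stepping down a little with each addition. It stood at 9.34, 10.4 and 9.70 CPM in NC and at 465, 471 and 468 CPM in LPS. It stood at 422, 391 and 401 CPM in CE and at 312, 315 and 326 CPM in CEL. The 4 groups were separate here too, but in the order NC, CEL, CE and LPS. The rise with LPS and ATP was 47.7-fold, a log2 change of 5.58 ± 0.05 (adjusted p = 5.07e-14). CE was 1.16-fold below LPS (log2 change -0.21 ± 0.04) and CEL was 1.27-fold below CE (log2 change -0.35 ± 0.04), so that CE held 86.5% and CEL 67.9% of the LPS mean.

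**Figure D1:**
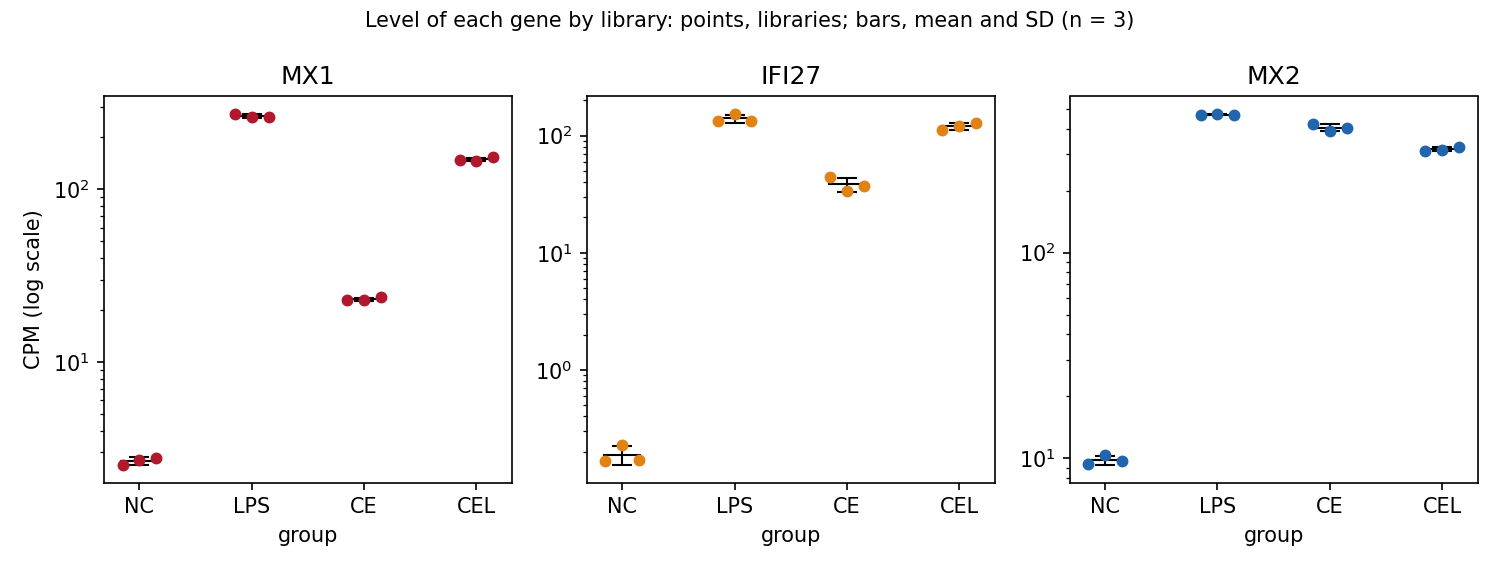
Level of MX1, IFI27 and MX2 in CPM (log scale) in each library of the 4 groups, with bars for the mean and SD of 3 libraries. MX1 and IFI27 dip in CE, to 8.70% and 27.3% of their LPS means, and are higher in CEL, while MX2 lies highest in LPS and lower in CE and again in CEL.

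TPM, which is scaled per transcript length, allows the 3 genes to be set against each other. In LPS, IFI27 stood at 505 ± 107 TPM (SD, n = 3), MX2 at 381 ± 64.0 and MX1 at 132 ± 20.9. In CE the order was MX2 at 332 ± 8.52, IFI27 at 141 ± 13.4 and MX1 at 12.2 ± 0.442. In CEL it was again IFI27 at 454 ± 8.55, MX2 at 281 ± 5.00 and MX1 at 81.4 ± 3.97. IFI27 and MX2 therefore changed places in CE and changed back in CEL. In NC all 3 were low, with MX2 at 5.89 ± 2.63, MX1 at 1.10 ± 0.146 and IFI27 at 0.550 ± 0.342 TPM. The lowest LPS value of IFI27, 383.67 TPM, lay within the range of MX2 over the LPS libraries, 307.06 to 418.29, but within each library IFI27 was the higher.

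A ratio of 2 genes within a library does not depend on how libraries are scaled. In TPM, MX1 was 35.4, 33.3 and 35.5% of MX2 in the LPS libraries, 3.64, 3.72 and 3.67% in CE and 31.2, 27.5 and 28.2% in CEL. The CE libraries thus lay far below the others, with an SD of 0.0388 percentage points among them. IFI27 was 125, 140.3 and 131% of MX2 in LPS, 47.5, 37.3 and 43.3% in CE and 161, 161 and 162% in CEL. It was lowest in CE again, and in CEL it was above every LPS library. In NC the ratios were 20.9 ± 8.02% for MX1 and 8.65 ± 3.32% for IFI27 (SD, n = 3). IFI27 had only 4, 5 and 3 counts there, and MX1 had 61, 59 and 49. MX2 stood at 6.01, 8.45 and 3.20 TPM in these libraries, though at 9.34, 10.4 and 9.70 CPM. The cause of that difference between the scales was not tested.

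**Figure D2:**
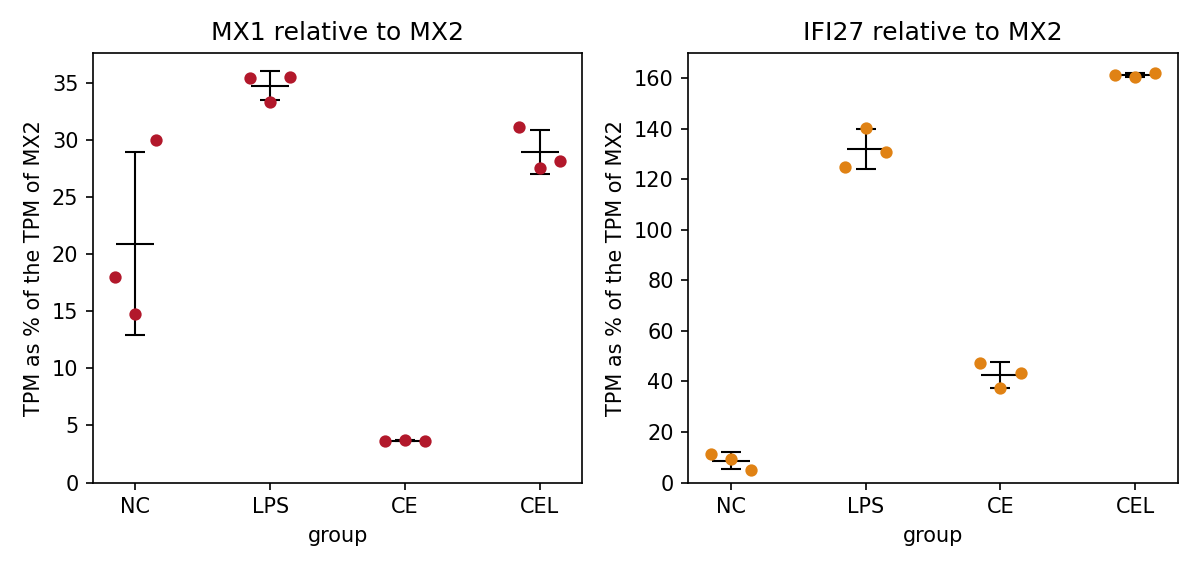
TPM of MX1 (left) and IFI27 (right) as a percentage of the TPM of MX2 in the same library, by group, with bars for the mean and SD of 3 libraries. The CE libraries lie at 3.64 to 3.72% for MX1 and at 37.3 to 47.5% for IFI27, below all LPS and CEL libraries.

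With LPS and ATP the interferon-induced genes rose broadly, and the 3 genes were among many. Of the 74 others, 73 had enough counts to be tested, and the exception was PARP10. Of these, 69 rose and 0 fell, against 22.4% and 23.5% of all tested genes, and 4 did not pass (IFITM2, SAMHD1, LGALS3BP and HELZ2, named after their values were seen). The median log2 change was 3.88 against -0.01 over all tested genes. The largest rises were those of IFI44L, an antiviral protein (450-fold), GBP1 and GBP5, guanylate-binding GTPases of cell-autonomous defence (211-fold and 187-fold), and CXCL10, a chemokine for activated T cells (186-fold). Among the 76 tested genes with the members included, IFI27 had the largest rise, MX1 the 10th and MX2 the 21st. The groups did not overlap for 71 of the 73, against 62.5% of all tested genes.

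With cyclosporin A and eltrombopag added, the other list genes went both ways. All tested genes did so too, and nothing particular to the list is read from that. Of 73 tested genes, 18 rose and 23 fell, against 28.8% and 20.7% of all tested genes, and 32 did not pass. The median log2 change was -0.12 against 0.08 over all genes, and 45 of 73 did not overlap between the groups, against 54.6%. The counts of rises and falls moved with the scaling. Upper-quartile factors, which shifted the median of all genes by -0.179, gave 12 higher and 34 lower, and limma on log2(FPKM + 1) gave 12 and 33. With limma on log2(TPM + 1) the counts were 12 and 11. MX1 was lowest of 76 by log2 change, IFI27 the third lowest and MX2 the 34th. MX1 and IFI27 were chosen for being lower here, so nothing is read from their places. The gene between MX1 and IFI27, CXCL9, a T cell chemokine named after its values were seen, stood at only 1.12 CPM in LPS and 0.292 CPM in CE.

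Among list genes without overlap whose mean log2 CPM was 3 or more, the largest falls were those of SAMHD1, a dNTP hydrolase that restricts HIV-1 (log2 change -1.18 ± 0.25, adjusted p = 0.00228), IFI44L (-1.05 ± 0.07), the helicase DDX60L (-0.99 ± 0.04) and HERC5, the ligase that attaches ISG15 (-0.93 ± 0.10). SAMHD1 differed within CE, at 153, 339.8 and 174 CPM. The largest rises were those of SP100, a nuclear body protein (1.13 ± 0.05), IRF9 (0.76 ± 0.07), GBP3 (0.71 ± 0.08) and CXCL11 (0.62 ± 0.08). As a share of the LPS level, the 73 genes had a median of 91.8% in CE, with quartiles of 76.7% and 117%. CXCL9, at 26.0%, was the lowest of the 73, at the low CPM given above. SAMHD1 was the lowest of the 62 whose mean log2 CPM was 3 or more, at 44.1%, but it had not passed with LPS. Beside them, MX1 was at 8.70% and IFI27 at 27.3%. MX1 and IFI27 were chosen for being lower here, so nothing is read from setting these shares together.

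When luspatercept joined, most of the list fell or did not pass, while MX1 and IFI27 were higher. Of 73 tested genes, 2 rose and 42 fell, against 8.78% and 14.8% of all tested genes, and 29 did not pass. The median log2 change was -0.45 against -0.09, and 45 of 73 did not overlap between the groups, against 34.7%. The falls were led by CXCL10 (log2 change -1.11 ± 0.09, adjusted p = 1.35e-05), DDX60L (-0.77 ± 0.04), STAT2 (-0.75 ± 0.06) and GBP1 (-0.72 ± 0.18, adjusted p = 0.0132). The call for GBP1 ended without the third CE library (adjusted p = 0.0715), the first CEL library (0.0661) or the second CEL library (0.0797). MX1 had the highest change of the 76 and IFI27 the next, while MX2 was the 31st from the top. The first 2 were chosen for being higher here, so nothing is read from their places. As a share of the LPS level, the 73 genes had a median of 67.7% in CEL, with quartiles of 53.8% and 100.2%. MX2, at 67.9%, sat at that median, MX1 at 56.1% below it and IFI27 at 85.5% above it.

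These list counts depended on the test used. On log2(TPM + 1), limma called 0 higher and 2 lower for CEL against CE. Without the third NC and first LPS libraries, left out together after the data had been seen, the same test called 3 higher and 32 lower, and edgeR called 2 and 36. The number that rose was 4 without the first CE library and 5 without the second.

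**Figure D3:**
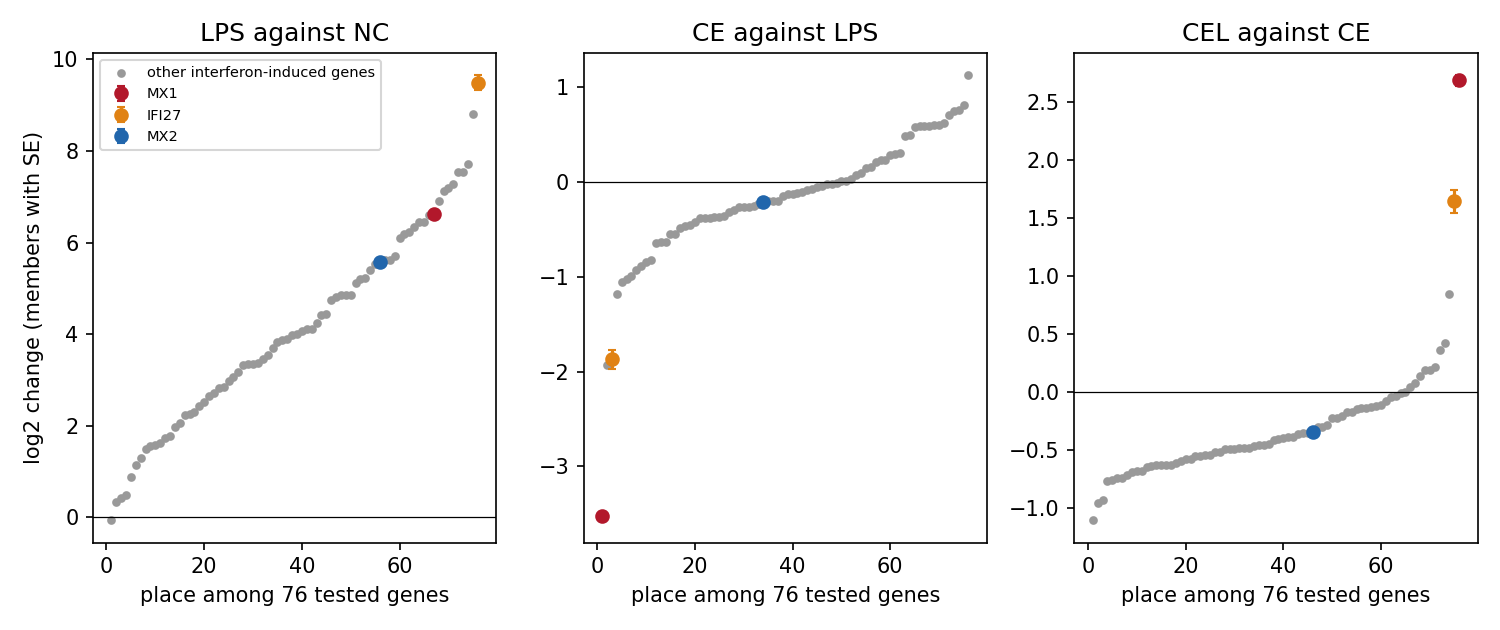
Log2 change of the 76 tested interferon-induced genes in each comparison, ordered from lowest to highest, with the standard error on MX1, IFI27 and MX2. With LPS against NC the 3 genes lie among the other rises. MX1 and IFI27 lie at places 1 and 3 from the bottom with CE against LPS. They lie at places 1 and 2 from the top with CEL against CE. Both genes were chosen for these changes, so nothing is read from their places. MX2 lies in mid-order in both of these comparisons.

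The fall with CE and rise with CEL that chose MX1 and IFI27 passed both tests in 2 of the 73 other genes (2.74%), against 262 of the 14065 tested genes (1.86%). These shares are close, so nothing particular to the list is read from the count. The count was 0 without the filter on low counts and with limma on log2(TPM + 1) or log2(TPM + 0.1), 1 with limma on log2(FPKM + 1), and 1 to 3 when each library was left out in turn (1 without LPS library 2, LPS library 3 or CE library 3). The CE libraries enter both comparisons, so the 2 changes of a gene are not independent. The first was IFITM3, a membrane protein that blocks viral entry, with 157, 162 and 168 CPM in LPS, 152, 127 and 130.5 in CE and 173, 186 and 191 in CEL. Its CE libraries lay lowest, by a small margin. Its log2 changes were -0.25 ± 0.07 (adjusted p = 0.0136) and 0.42 ± 0.07 (adjusted p = 0.00151). The fall was lost without LPS library 2 (adjusted p = 0.0616), LPS library 3 (0.0556) or CE library 3 (0.0862), without the filter (0.0774) and on log2(TPM + 1) (0.423), where the rise was lost too (0.239).

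The second was ZC3HAV1, the zinc-finger antiviral protein that marks CpG-rich RNA for decay. It stood at 183, 186 and 184 CPM in LPS, 137 to 162 in CE and 195, 180 and 199 in CEL, again lowest in CE. Its log2 changes were -0.30 ± 0.06 (adjusted p = 0.00122) and 0.36 ± 0.06 (adjusted p = 0.0012), but on log2(TPM + 1) the first turned to 0.16 (adjusted p = 0.557) and the rise was lost (0.0913), as it was without the filter (0.0779). Both genes moved far less than MX1 and IFI27, but those 2 were chosen for these changes, so nothing is read from the difference. Asking for at least 2-fold in both directions left 45 of all tested genes (0.32%), and none of the 73. Ordered by the smaller of the 2 changes, MX1 was the 10th of these 45 and IFI27 the 28th. Their choice favours such places, so nothing is read from them. Above MX1, CD93, a receptor of myeloid and endothelial cells named after its values were seen, was the one gene whose mean log2 CPM was 3 or more, at log2 changes of -3.91 and 3.38.

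Across the 9 LPS, CE and CEL libraries, genes were ranked by Pearson's r of log2 CPM with each of the 3, among the 7460 genes whose mean log2 CPM was 3 or more. The 9 libraries fall into 3 groups, so r mostly reads the order and spacing of the group means, and it is given as a description. Nearest to MX1 were TIMM10B (r = 0.995), ANKRD42 (0.987), IFI27 (0.983), RAB13 (0.983) and ZBTB2 (0.983). Nearest to IFI27 were RAB13 (0.996), ZBTB2 (0.994), CTSL (0.986), PKIB (0.986) and TIMM10B (0.985), and MX1 came sixth. RAB13 had log2 changes of 4.96 with LPS, -2.10 with CE and 1.95 with CEL, whereas TIMM10B had -0.29, -0.96 and 0.73. Nearest to MX2 were AURKA (0.999), OAS2 (0.997), NREP (0.997), CDKN3 (0.996) and DLGAP5 (0.996). Of these, OAS2, which makes the oligoadenylates that activate RNase L, is a gene of the interferon list, with log2 changes of 6.34, -0.37 and -0.54. MX1 and MX2 had r = 0.084 over the 9 libraries and 0.864 over all 12, where NC separates them together.

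Of the transducers of the signal, STAT2 and IRF9 did not have the course of MX1. STAT2 stood at 31.8 ± 0.416 CPM in NC, 150.1 ± 1.33 in LPS, 102.6 ± 8.50 in CE and 61.1 ± 1.80 in CEL (SD, n = 3). It stepped down with each addition, as MX2 did. Its log2 changes were 2.24 ± 0.06, -0.55 ± 0.06 and -0.75 ± 0.06, and each passed the test (largest adjusted p = 9.82e-06, CE against LPS).

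IRF9, the DNA-binding partner, took yet another course and did not step down. It stood at 3.97 ± 0.163, 33.2 ± 0.671, 56.3 ± 5.19 and 64.3 ± 3.04 CPM in the same order of groups. It rose with LPS (log2 change 3.06 ± 0.08) and again with CE (0.76 ± 0.07, adjusted p = 4.3e-06). CEL against CE gave 0.19 ± 0.07 with an adjusted p of 0.0731, which became a call with DESeq2 (0.24, adjusted p = 0.00437) and in 4 of 12 fits that left out a library.

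Interferon transcripts were scarce. IFNB1, the interferon made after TLR4 stimulation, had 5 counts over the NC libraries, 41 in LPS, 17 in CE and 3 in CEL. Its rise with LPS passed the test (log2 change 2.92 ± 0.59, adjusted p = 0.00189). The ratio of CE to LPS was 0.429 with an exact 95% interval of 0.229 to 0.772, and the edgeR adjusted p was 0.0648, or 0.0402 with upper-quartile factors. The ratio of CEL to CE was 0.177 with an interval of 0.0332 to 0.612, and the adjusted p was 0.0337, which became 0.0675 with the replicate number as a block. Leaving out a library ended that call in 9 of 12 fits, with adjusted p up to 0.130. Each CEL library had fewer IFNB1 counts (0, 2 and 1) than each CE library (8, 3 and 6). Another 19 interferon genes had 1.77 to 13 counts each over all 12 libraries, and IFNG was at 0.

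Most receptor chains and kinases rose with LPS and again with CE. Of 9 genes, 8 were tested. With LPS 7 rose and 0 fell, and TYK2 did not pass (1.06 ± 0.62, adjusted p = 0.188). With CE 6 rose and 0 fell, and across all tested genes the shares higher and lower were 22.4% and 23.5% with LPS and 28.8% and 20.7% with CE. In CE, JAK2 (-0.10) and TYK2 (0.41) did not pass. The median log2 change of the 8 was 0.69 with LPS, 0.60 with CE and -0.06 with CEL, against -0.01, 0.08 and -0.09 over all tested genes. IFNAR1 had log2 changes of 0.71 ± 0.06 with LPS and 0.91 ± 0.06 with CE, and IFNAR2 of 0.68 ± 0.06 and 0.26 ± 0.06. The interferon gamma receptor chains IFNGR1 and IFNGR2 rose by 0.70 ± 0.06 and 1.43 ± 0.04 with CE, IL10RB, a shared chain of the interferon lambda receptor, by 0.50 ± 0.05 and JAK1 by 0.84 ± 0.04. Upper-quartile factors gave 5 higher and 1 lower for CE, with IFNAR2 at 0.09 (adjusted p = 0.273) and JAK2 at -0.27 (adjusted p = 0.00292).

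With CEL against CE, the receptor list showed little movement. IFNGR2 rose by 0.16 ± 0.04 and IL10RB fell by 0.25 ± 0.05, and these calls ended in 3 and 6 of 12 fits that left out a library. IFNAR1 was at 0.09 ± 0.06, IFNAR2 at -0.01 ± 0.06, IFNGR1 at -0.10 ± 0.06, JAK1 at 0.05 ± 0.04, JAK2 at -0.19 ± 0.07 and TYK2 at -0.77 ± 0.59, none past the test. Of 7 genes that restrain the pathway, 5 were tested. With LPS 4 rose, among them USP18, which removes ISG15 and blocks IFNAR2 signalling (5.61 ± 0.11). USP18 then gave -0.20 ± 0.08 with CE (adjusted p = 0.0631) and fell by 0.49 ± 0.08 with CEL (adjusted p = 0.00141).

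None of the tested relatives of the 3 proteins fell with CE and rose with CEL. Dynamin-related GTPases, the wider family of MX1 and MX2, act in membrane fission and fusion. Of 10 tested, 3 rose and 2 fell with LPS, 4 rose and 2 fell with CE, and 0 rose and 2 fell with CEL, beside 22.4% and 23.5%, 28.8% and 20.7%, and 8.78% and 14.8% of all tested genes. Nothing particular to the family is read from these counts. The largest called changes with CE were in MFN1, a mitochondrial fusion protein (-0.79 ± 0.07), and DNM3 (0.74 ± 0.14). With upper-quartile factors the counts for CE became 1 higher and 3 lower, without the third CE library 2 and 2, and without the second 4 and 4. With limma on log2(TPM + 1) or log2(TPM + 0.1) the counts for CE were 0 and 0. The calls of MFN1 (adjusted p = 0.134 and 0.137) and DNM3 (0.0659 and 0.0997) were thus lost on those scales. Without the third NC and first LPS libraries together, 0 rose and 0 fell with LPS, and with the replicate block the fall of DNM1L in CEL was lost (adjusted p = 0.0673). The guanylate-binding proteins, interferon-induced GTPases of another branch, had 5 of 7 members tested. All 5 rose with LPS, 2 rose and 0 fell with CE (GBP3 by 0.71 and GBP4 by 0.59), and 0 rose and 4 fell with CEL, beside the same shares of all tested genes. GBP1, GBP2 and GBP5 were among the 4, as was GBP4, whose call ended in 3 of 12 fits that left out a library (adjusted p up to 0.127). The falls became 2 without the third CE or the second CEL library, and 0 with limma on log2(TPM + 1). With upper-quartile factors 2 rose and 3 fell with CE, and 2 fell without the first or without the third NC library.

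IFI27 belongs to a small family of similar hydrophobic proteins. IFI6, its interferon-induced relative at mitochondria, stood at 2.01 ± 0.339 CPM in NC, 137 ± 4.39 in LPS, 168 ± 14.7 in CE and 177 ± 6.61 in CEL. It showed no dip in CE: its log2 changes were 6.10 ± 0.11, 0.29 ± 0.08 (adjusted p = 0.0104) and 0.08 ± 0.08 (adjusted p = 0.537). The second was lost without the second LPS (adjusted p = 0.0771) or first CE library (0.101) and with upper-quartile factors (0.315). In TPM, IFI27 was 196 ± 19.2% of IFI6 in LPS, 44.5 ± 4.26% in CE and 129 ± 4.67% in CEL (SD, n = 3). IFI27L1 moved the other way, at 6.82 ± 0.388 CPM in LPS, 11.9 ± 0.688 in CE and 9.01 ± 1.12 in CEL. Its rise with CE passed the test (0.80 ± 0.11, adjusted p = 6.41e-05), and its fall with CEL (-0.40 ± 0.10, adjusted p = 0.0161) ended in 6 of 12 fits that left out a library. IFI27L2 gave -0.18, -0.12 and -0.41 and did not pass (smallest adjusted p = 0.0929).

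MX1 and MX2 are neighbours on chromosome 21 and took different courses. MX2 (41362027 to 41409393) and MX1 (41420558 to 41459214, GRCh38.p14) lie on the same strand with 11164 bases between them, and their log2 changes were -0.21 and -3.52 with CE, and -0.35 and 2.69 with CEL. Of the 3 nearest protein-coding genes on each side of the pair, DSCAM, BACE2, FAM3B, TMPRSS2 and RIPK4 had 8 to 28 counts over all libraries and were not tested. FAM3B, which lies next to MX2, had 0 counts in NC, 21 in LPS, 2 in CE and 3 in CEL. DSCAM, BACE2, TMPRSS2 and RIPK4 had at most 9 in any group. PRDM15, the next, gave 0.07, -0.14 and 0.10 in the 3 comparisons (smallest adjusted p = 0.744).

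IFI27 lies on chromosome 14 (94105894 to 94116690) between IFI27L1 and IFI27L2. Of its other neighbours, DDX24, a helicase gene, had small changes in the same directions as IFI27. It stood at 307 ± 8.85 CPM in LPS, 251 ± 13.4 in CE and 293 ± 18.4 in CEL, with log2 changes of 0.25 ± 0.05, -0.29 ± 0.05 (adjusted p = 0.000921) and 0.22 ± 0.05 (adjusted p = 0.012). PPP4R4 had 3 counts in NC, 68 in LPS, 10 in CE and 14 in CEL. Its log2 change was -2.68 ± 0.44 with CE (adjusted p = 0.000355) and 0.47 ± 0.51 with CEL (adjusted p = 0.583). OTUB2 fell with LPS (-0.67 ± 0.15, adjusted p = 0.00363) and did not pass in the other comparisons, and SERPINA10 had 9 counts in all and was not tested.

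**Figure D4:**
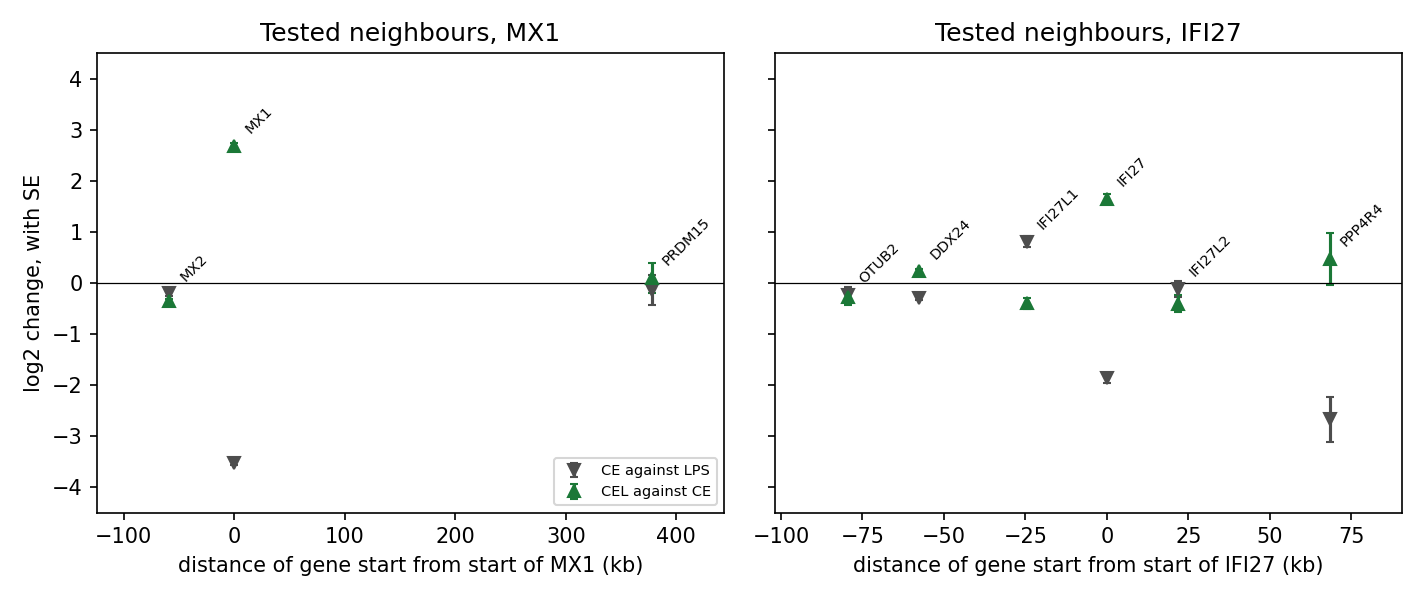
Log2 change, with its standard error, of the tested genes around MX1 (left) and IFI27 (right), placed by the distance of their annotated starts in kb. MX1 and IFI27 show large opposite changes, while MX2, on the left, lies at -0.21 and -0.35. On the right, PPP4R4 lies at -2.68 and 0.47 and DDX24 at -0.29 and 0.22.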

How the data were processed

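The series holds 12 THP-1 RNA libraries, 3 in each of 4 groups. The authors deposited 3 tables of 78932 genes, 42745 with a symbol, on build hg38 per the submitters' processing notes. No label or header used here names the aligner, the counting tool, the strand setting or the annotation. The first deposited table holds estimated counts (29.267% of nonzero values not whole within 0.005). The second deposited table holds TPM and the third deposited table FPKM, both scaled by the authors for length and depth. Samples were grouped by their labels, and 0 columns were left over.

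Estimated counts were rounded. Genes passing edgeR's filterByExpr (14065) were scaled with TMM factors and fitted together in edgeR 4.0.16 by quasi-likelihood with group as the term, in R 4.3.3. P-values are two-sided and were adjusted by Benjamini and Hochberg over all tested genes. Verbs of rising and falling stand for an adjusted p under 0.05. Variation between replicates had a common dispersion of 0.0405 (biological coefficient of variation 20.13%). Depth limits genes with few counts most, and their intervals cover counting error only, at the 95% level.

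The labels give each library a batch number equal to its replicate number, so the numbers pair the samples by label. Over 7460 genes, deviations from the group means correlated above 0.1 in 6 of 18 same-numbered pairs (range -0.857 to 0.728, median -0.186), and 1 of 12 libraries correlated best with its own number.

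The members, lists, tests and naming rule were chosen with earlier results of these data known. The rule names the 3 members, the 4 largest rises and falls of the list per comparison (adjusted p under 0.05, no overlap, mean log2 CPM of at least 3), tested transducers, receptors and IFI27 relatives, interferons with counts, the 3 nearest coding genes on each side, and the 5 nearest genes by r. Motifs were counted with Python 3.11.15. Alternatives were DESeq2 1.42.0, limma 3.58.1 on log2(TPM + 1), log2(TPM + 0.1) and log2(FPKM + 1), other scaling factors, no filter, the replicate block and each library left out. Leaving out the third NC and first LPS libraries, with edgeR and with limma on TPM, was added after seeing the data. The fits were tested on simulated counts. The values of 1 gene of the lists are not reported here.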

Additional observations from a re-analysis of the deposited data

How the results depend on the processing

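For MX1, MX2 and IFI27, the direction of the change in each of the 6 comparisons between groups held under every alternative run. CEL against LPS, for MX1 and then MX2, was -0.97 and -0.69 with upper-quartile factors, -0.93 and -0.66 without the filter, -0.89 and -0.64 on log2(FPKM + 1), and, with limma on TPM, -0.68 and -0.42 at a pseudocount of 1 but -0.69 and -0.42 at 0.1. Leaving out 1 library at a time gave -0.85 to -0.77 for MX1, -0.58 to -0.51 for MX2 and -0.27 to -0.12 for IFI27. The count of other list genes lower in CE and higher in CEL was 0 without the filter, 0 on log2(TPM + 1), 0 on log2(TPM + 0.1), 1 on log2(FPKM + 1) and 1 to 3 with 1 library left out. With upper-quartile factors, CE against LPS was -3.70 for MX1 and -0.38 for MX2. CE against NC was then 2.83, 5.08 and 7.34 (MX1, MX2 and IFI27) and CEL against NC 5.56, 4.77 and 9.02. DESeq2 gave -3.57 for MX1 in CE against LPS. Without the filter, CEL against CE was 2.62 for MX1 and -0.42 for MX2, and 1 other list gene rose. On log2(TPM + 1), MX1 was -3.32 in CE against LPS and MX2 -0.24 in CEL against CE. CE against NC was 2.66, 5.67 and 6.54 and CEL against NC 5.30, 5.43 and 8.22. In CE against LPS 11 of the list fell, and in CEL against CE 0 rose and 2 fell. On log2(TPM + 0.1) the same values were -3.41 and -0.24, 3.37, 5.90 and 7.95, and 6.10, 5.66 and 9.64, with 10 higher and 11 lower, then 0 and 2. On log2(FPKM + 1), MX2 was -0.38 and -0.26 in CE against LPS and CEL against CE, and MX1 2.59 in the latter. MX1 and IFI27 were 2.31 and 6.17 in CE against NC and 4.90 and 7.82 in CEL against NC. Leaving out the third NC and first LPS libraries on log2(TPM + 1) gave -3.46 and -0.33 for MX1 and MX2 in CE against LPS and -0.24 for MX2 in CEL against CE. CE against NC was then 2.61 for MX1 and 6.35 for IFI27, and CEL against NC 5.25, 5.12 and 8.03. A pseudocount of 1 lowers changes from the low NC level by construction, and the cause of the other shifts was not tested. Leaving out 1 library at a time, MX1 was 2.67 to 2.78 and MX2 -0.38 to -0.24 in CEL against CE, MX2 was -0.27 to -0.17 in CE against LPS, and 2 to 5 list genes rose in CEL against CE. ZC3HAV1 turned from a fall to 0.16 and 0.17 on the TPM scales in CE against LPS, for which the cause was not tested. The replicate block gave 69 higher and 0 lower, 18 and 22, and 2 and 42 in the 3 comparisons of the list. Beyond that list it ended the calls of IFNB1, PIAS1, TLR8, TBK1 and DNM1L in CEL against CE and of IFI27L1 in LPS against NC (adjusted p 0.057 to 0.0693), and no other call in the related lists.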

Other observations

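Of a list of 18 genes that start the interferon response, 17 were tested. Most of these rose with LPS and ATP, and with CE they went both ways. With LPS and ATP 11 rose and 2 fell, against 22.4% and 23.5% of all tested genes, and with CE 5 rose and 5 fell, against 28.8% and 20.7%. Without the second CE library the counts for CE were 5 and 8. All tested genes also went both ways with CE, so nothing particular to the list is read from these counts. The names here were chosen after their values were seen. With CE the rises were TLR4, the LPS receptor (log2 change 0.87 ± 0.08), IFIH1, a sensor of long double-stranded RNA (0.59 ± 0.04), IRF1 (0.70 ± 0.12), the RNA receptor TLR7 (0.49 ± 0.16, adjusted p = 0.0215) and the kinase TBK1 (0.34 ± 0.06). The rise of TLR7 was lost without LPS library 1 (adjusted p = 0.0721), LPS library 3 (0.0693) or CE library 1 (0.107), with DESeq2 (0.0587), with upper-quartile factors (0.115), without the filter (0.217) and with limma on log2(TPM + 1) (0.323), log2(TPM + 0.1) (0.447) and log2(FPKM + 1) (0.402). The falls were TLR8, a receptor for single-stranded RNA (-1.69 ± 0.17), IRF8, a factor of the monocyte lineage (-1.18 ± 0.08), CGAS and STING1, the DNA sensor and its adaptor (-1.04 ± 0.27 and -0.69 ± 0.20), and RIGI, a sensor of RNA ends (-0.82 ± 0.08). With CEL against CE, 2 rose, IRF8 (0.28 ± 0.08, adjusted p = 0.024) and TBK1 (0.19 ± 0.06, adjusted p = 0.0303, and 0.057 with the replicate block), and 4 fell, against 8.78% and 14.8% of all tested genes. IRF8 stood at 452 ± 1.20 CPM in NC, 324 ± 5.73 in LPS, 142 ± 19.9 in CE and 173 ± 9.13 in CEL. It thus also had its low in CE, but it fell with LPS, where MX1 and IFI27 rose. IRF8's rise with CEL was lost without a filter (adjusted p = 0.301). It was also lost with limma on log2(TPM + 1) (0.482), log2(TPM + 0.1) (0.490) and log2(FPKM + 1) (0.0504). TBK1's rise with CEL was lost without a filter (0.673) and with limma on all 3 scales (smallest adjusted p = 0.0918). It was lost too with relative log expression scaling factors (0.0694) and in several fits that left out a library, such as CEL library 3 (0.124). The CE rises of IRF1 and TBK1 were lost with limma on all 3 scales (smallest adjusted p = 0.223 and 0.148). The CE fall of STING1 was lost with limma on log2(TPM + 1) (0.0697) and log2(TPM + 0.1) (0.0646). It was also lost without LPS library 3 (0.0691), and that of CGAS was lost with limma on log2(TPM + 0.1) (0.0529).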
